A study of Mus musculus with 15 samples.

Results

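Eph receptors and ephrins are the membrane-bound receptor tyrosine kinases and ligands by which neighbouring cells sort and repel one another. The 10 genes described here were chosen by name, and all 10 were found among the 32939 genes of the count table: the receptors Ephb2, Ephb3, Ephb4, Ephb6, Epha1 and Epha2 and the ephrins Efna1, Efna4, Efnb1 and Efnb2. Their RNA was measured by RNA-seq in colonic crypts, the glands of the large intestinal lining, in 15 samples of mouse, 5 in each of 3 groups. NL-shGFP mice were wild type (WT), ate a normal diet, had a normal liver and carried AAV-shGFP. FL-shGFP mice were WT, ate a CDAA diet, had a fatty liver and carried the same AAV-shGFP. FL-shAlpl mice differed from FL-shGFP in carrying AAV-shAlpl, a viral vector with a short hairpin RNA against Alpl, the gene of tissue-nonspecific alkaline phosphatase. All animals thus carried a vector, diet and liver state changed together, no normal-liver mice received AAV-shAlpl, and the labels give neither the strain, sex or age of the mice nor the promoter of the vectors or the tissue they reach. The labels do not state that the 5 samples of a group are separate animals. Their spread, on which each p-value rests, may then be technical.

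In the intestinal epithelium, EphB receptors are highest at the crypt base and B-type ephrins are highest towards the lumen, and repulsion between the 2 sides is known to keep stem, progenitor and differentiated cells in their places along the crypt axis. Ephb2 and Ephb3 are known target genes of beta-catenin and TCF, the effectors of Wnt signalling, and mice without them misplace cells of the crypt. EphA receptors mainly bind the A-type ephrins, which are held in the membrane by a lipid anchor, whereas B-type ephrins span the membrane and signal backwards into the cell that carries them.

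The promoters of 4 members are shown first: Ephb2 and Ephb3 as the receptors of the crypt base, Efnb2 as a ligand that faces them, and Epha2 as the member whose promoter held a match to the letters searched. The 250 bases before the RefSeq start are given 5′ to 3′ on the gene's own strand in build GRCm38.p6, for Ephb2 (chromosome 4, minus strand, chr4:136836013-136836262), Ephb3 (chromosome 16, plus strand, chr16:21204545-21204794), Epha2 (chromosome 4, plus strand, chr4:141300971-141301220) and Efnb2 (chromosome 8, minus strand, chr8:8661243-8661492), and capitals mark the letters CTTTGA.
Ephb2: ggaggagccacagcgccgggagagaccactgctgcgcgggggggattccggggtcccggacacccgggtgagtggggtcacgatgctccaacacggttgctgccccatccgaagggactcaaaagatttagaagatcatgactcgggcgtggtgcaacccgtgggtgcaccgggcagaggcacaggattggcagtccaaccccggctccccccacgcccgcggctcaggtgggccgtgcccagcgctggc
Ephb3: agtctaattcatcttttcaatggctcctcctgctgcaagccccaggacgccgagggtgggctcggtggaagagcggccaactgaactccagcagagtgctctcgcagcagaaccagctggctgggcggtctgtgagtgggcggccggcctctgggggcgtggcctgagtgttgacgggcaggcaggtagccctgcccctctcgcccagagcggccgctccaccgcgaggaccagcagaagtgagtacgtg
Epha2: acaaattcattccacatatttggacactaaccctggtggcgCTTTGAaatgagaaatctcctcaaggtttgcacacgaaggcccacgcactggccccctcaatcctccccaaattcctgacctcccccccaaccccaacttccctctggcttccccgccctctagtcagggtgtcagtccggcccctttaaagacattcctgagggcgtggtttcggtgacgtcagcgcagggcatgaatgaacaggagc
Efnb2: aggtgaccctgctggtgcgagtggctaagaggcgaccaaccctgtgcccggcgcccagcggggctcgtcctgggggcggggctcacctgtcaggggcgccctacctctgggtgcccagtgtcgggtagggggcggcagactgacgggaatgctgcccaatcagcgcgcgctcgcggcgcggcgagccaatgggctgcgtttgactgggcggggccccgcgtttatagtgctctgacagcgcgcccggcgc
The core of the TCF site was searched on both strands as CTTTGAT. It was in 0 of the 11 promoters of the 10 genes (Efna1 has 2) and in 3.21% of all 32851 promoters of that length. The sister form CTTTGAA was in 1 of the 11, that of Epha2, beginning 209 bases before the start, and in 4.46% of all promoters. The shorter CTTTGA, which lies inside both, was in that promoter alone, against 13.8% of all. Windows of 250 bases do not hold distant enhancers, and these letters say nothing of binding. GC content ran from 54.4% to 76.8% in the 11 promoters, all at or above the median of 52.4% over all promoters.

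In normal-liver crypts the most abundant members per length were Efna1 and Ephb4. Levels of different genes are compared in FPKM, the deposited values scaled to gene length and library total. The length these values imply was 12608 bases for Ephb2 and 6641 bases for Ephb3. The length of the transcripts present was not measured, so levels and ratios between genes rest on the lengths used. Efna1, an A-type ephrin, averaged 22.6 ± 8.46 FPKM (SD, n = 5 here and below) and Ephb4, the receptor best known from veins, 21.96 ± 3.11 FPKM, and the ranges of these 2 overlapped. Efnb1 followed at 15.2 ± 1.35 FPKM without overlap with Ephb4 above it or Ephb2 below it. Its range (13.5 to 16.7 FPKM) did overlap that of Efna1 (14.8 to 34.2 FPKM). Ephb2 (7.68 ± 1.55 FPKM), Efnb2 (6.60 ± 1.12 FPKM), Ephb3 (6.53 ± 1.40 FPKM), Epha1 (4.55 ± 0.635 FPKM), Efna4 (3.69 ± 1.53 FPKM) and Epha2 (3.13 ± 0.739 FPKM) came next, each overlapping the one after it. Ephb6, a receptor whose kinase is inactive, was last at 0.116 ± 0.0606 FPKM and below every other member in all 15 samples. In FL-shGFP the order changed: Efna1 (62.4 ± 12.1 FPKM) stood alone at the top, Efnb1 (23.3 ± 3.04 FPKM) and Efnb2 (15.1 ± 5.13 FPKM) were next, Epha2 (10.02 ± 2.70 FPKM) was the fourth and Ephb3 (1.17 ± 0.422 FPKM) was ninth of the 10. In FL-shAlpl, Efna1 (24.2 ± 5.55 FPKM), Efnb1 (21.6 ± 4.72 FPKM) and Ephb4 (18.4 ± 5.14 FPKM) led with overlapping ranges, and Ephb3 (3.13 ± 1.06 FPKM) was again ninth. That rank is by mean: in FL-shGFP and in FL-shAlpl the range of Ephb3 overlapped that of Efna4, the next above it.

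Between samples, levels are given in CPM (counts scaled to the library total, with TMM factors), and differences as log2 fold changes ± standard error from edgeR's quasi-likelihood test, with p adjusted by Benjamini-Hochberg over the 17404 genes tested. All 10 members passed the filter on low counts. Each library held between 33.3 M and 58.6 M counts. Mitochondrially encoded genes took 28.0% to 37.5% of the counts in NL-shGFP, 13.7% to 21.5% in FL-shGFP and 14.8% to 24.3% in FL-shAlpl. With library totals in place of TMM the median log2 fold change of all genes between FL-shAlpl and NL-shGFP moved from 0.05 to 0.19. NL-shGFP replicates 3 and 4 were the closest pair of that group (median chi-square per gene 1.52), then replicates 1 and 2 (2.35), against 3.46 to 10.3 for its other pairs, and these samples were counted separately. As a check of the tissue, 10 of 10 epithelial markers were detected, with a summed level of 6956 to 8912 CPM in NL-shGFP, 8211 to 11945 CPM in FL-shGFP and 7790 to 11363 CPM in FL-shAlpl. Ascl2, a transcription factor of crypt stem cells, was at 0 in FL-shGFP replicates 2 and 4 and at most 0.264 CPM in that group. In bulk RNA, fewer cells of a type and less RNA per cell cannot be told apart, and this holds for every result below.

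With fatty liver and CDAA diet, the receptors of the crypt base were lower and the ephrins Efnb1, Efnb2 and Efna1 and the receptor Epha2 were higher. Of the 10 members, 5 rose, 4 fell and 1 did not pass in FL-shGFP against NL-shGFP, beside 46.7% of all genes tested that passed in either direction (25.1% higher, 21.6% lower). The 10 log2 fold changes had a median of 0.38, against -0.0016 for all genes. CPM values of the groups did not overlap in 6 of 10 members, beside 34.2% of all genes (18.1% higher, 16.2% lower).

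**Figure D1:**
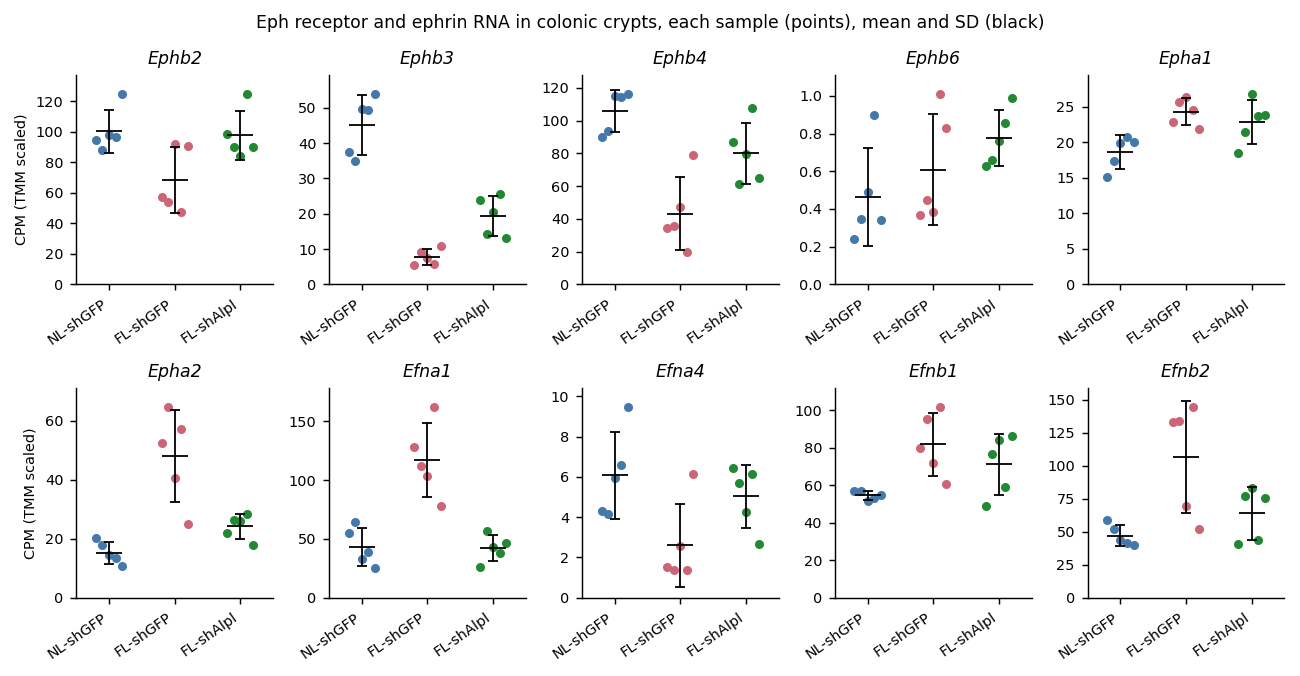
RNA level of each of the 10 genes in CPM (vertical axes, each starting at 0) by group. Coloured points are the 5 samples of a group, the black bar is their mean and the whiskers are 1 SD; Ephb3 shows 3 separate groups of points, while Ephb6 overlaps throughout.

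Ephb3, the receptor that with Ephb2 holds cells at the crypt base, changed the most of the 10. Its level was 37.4, 34.8, 49.8, 49.5 and 54.0 CPM in NL-shGFP replicates 1 to 5, 5.39, 9.14, 7.52, 5.74 and 10.7 CPM in FL-shGFP, and 24.0, 14.2, 20.6, 25.5 and 13.1 CPM in FL-shAlpl. No 2 of the 3 groups overlapped: every FL-shGFP sample was below every FL-shAlpl sample, and every FL-shAlpl sample was below every NL-shGFP sample. The fall in FL-shGFP against NL-shGFP was 5.84-fold (-2.55 ± 0.23, edgeR adjusted p = 4.82e-06).

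Ephb2, its partner receptor, fell less steeply and with more scatter. Its level was 94.9, 88.0, 97.7, 96.8 and 125 CPM in NL-shGFP and 57.4, 53.7, 92.1, 47.5 and 90.9 CPM in FL-shGFP. FL-shGFP replicates 3 and 5 lay inside the NL-shGFP range and the other 3 samples lay below it. The difference was -0.55 ± 0.18 (edgeR adjusted p = 0.0207), and the call was lost when replicate 5 of NL-shGFP or replicate 1, 2 or 4 of FL-shGFP was left out (highest edgeR adjusted p 0.0572), and with library totals or a limma fit on either FPKM scale. The ratio of Ephb2 to Ephb3 in FPKM was 1.03 to 1.34 in NL-shGFP, 3.09 to 6.45 in FL-shGFP and 2.16 to 3.65 in FL-shAlpl, with no overlap between NL-shGFP and either other group; this ratio was chosen after its values were seen and was not tested.

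Ephb4, a receptor for Efnb2 that vessel cells and epithelium both carry, fell as well. Its level was 90.3, 93.9, 115, 115 and 117 CPM in NL-shGFP and 34.2, 35.8, 47.3, 19.7 and 79.3 CPM in FL-shGFP. All 5 FL-shGFP samples were below NL-shGFP, replicate 5 only narrowly, and the difference was -1.29 ± 0.28 (edgeR adjusted p = 0.00186). Endothelial markers summed to 5.40 to 8.45 CPM in NL-shGFP, 10.7 to 20.5 CPM in FL-shGFP and 7.09 to 13.2 CPM in FL-shAlpl. Of 10 tested, 6 rose and 0 fell in FL-shGFP against NL-shGFP, and 0 rose and 5 fell in FL-shAlpl against FL-shGFP. Over all genes 25.1% rose and 21.6% fell in the first of these comparisons, and 18.0% and 17.9% in the second. The part of endothelial cells in the difference of Ephb4 was not tested. By the GENCODE M21 annotation Ephb4 shares 33 exon bases with Zan on the other strand (0.711% of its exons), and the strand setting of the counts is not given in the sources used here.

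Ephb6 ranged from 0.240 to 1.01 CPM over NL-shGFP and FL-shGFP, in counts of 8 to 44, and did not pass (0.37 ± 0.39, 95% interval -0.48 to 1.23, edgeR adjusted p = 0.451). The interval rests on the spread between the samples and spans 0. Epha1, a receptor of epithelial tissues, rose slightly, with NL-shGFP samples at 15.1 to 20.8 CPM and FL-shGFP samples at 21.8 to 26.4 CPM (0.38 ± 0.12, edgeR adjusted p = 0.0139). The 2 groups of Epha1 values did not overlap; it shares 6.01% of its exon bases with Zyx on the other strand, and it did not pass when the close NL-shGFP libraries were summed (edgeR adjusted p = 0.0571).

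Epha2, a receptor of epithelial cells that binds Efna1, rose 3.14-fold. It measured 20.1, 18.0, 14.4, 13.6 and 10.6 CPM in NL-shGFP and 52.6, 64.8, 40.7, 57.3 and 25.2 CPM in FL-shGFP. All 5 FL-shGFP samples were above every NL-shGFP sample, with replicate 5 nearest to them, and the difference was 1.65 ± 0.23 (edgeR adjusted p = 8.82e-05).

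Efna1, the main ligand of Epha2, rose with it. Its level was 55.3, 64.4, 32.8, 38.5 and 25.6 CPM in NL-shGFP and 129, 112, 103, 162 and 77.9 CPM in FL-shGFP. The groups did not overlap, and the difference was 1.43 ± 0.26 (edgeR adjusted p = 0.000682). Efna4, another A-type ephrin, went the other way, with NL-shGFP samples at 4.16 to 9.47 CPM and FL-shGFP samples at 1.36 to 6.14 CPM (-1.22 ± 0.41, edgeR adjusted p = 0.0235). Its 4 lowest samples were FL-shGFP replicates 1 to 4 (1.53, 1.36, 2.58 and 1.37 CPM), while replicate 5 at 6.14 CPM lay among the NL-shGFP samples. As for Ephb2, the Efna4 call was lost when any of the same 4 samples was left out (highest edgeR adjusted p 0.0657) and with library totals, and without FL-shGFP replicate 5 the difference was -1.83.

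Efnb1 and Efnb2, B-type ephrins that face the EphB receptors from the upper crypt, both rose. Efnb3, the other B-type ephrin and not among the 10 genes, fell (-1.94 ± 0.51, edgeR adjusted p = 0.00625). Efnb1 was 56.8, 57.2, 51.7, 53.2 and 54.5 CPM in NL-shGFP, the tightest of the 10 genes, and 80.1, 95.2, 71.7, 102 and 60.8 CPM in FL-shGFP. Every FL-shGFP sample was higher, and the difference was 0.58 ± 0.16 (edgeR adjusted p = 0.00773). Efnb2 was 58.7, 51.9, 43.8, 41.6 and 39.8 CPM in NL-shGFP and 133, 134, 69.7, 145 and 52.0 CPM in FL-shGFP. Of its FL-shGFP samples 4 were above every NL-shGFP sample and replicate 5 was inside their range, with a difference of 1.18 ± 0.28 (edgeR adjusted p = 0.00365).

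**Figure D2:**
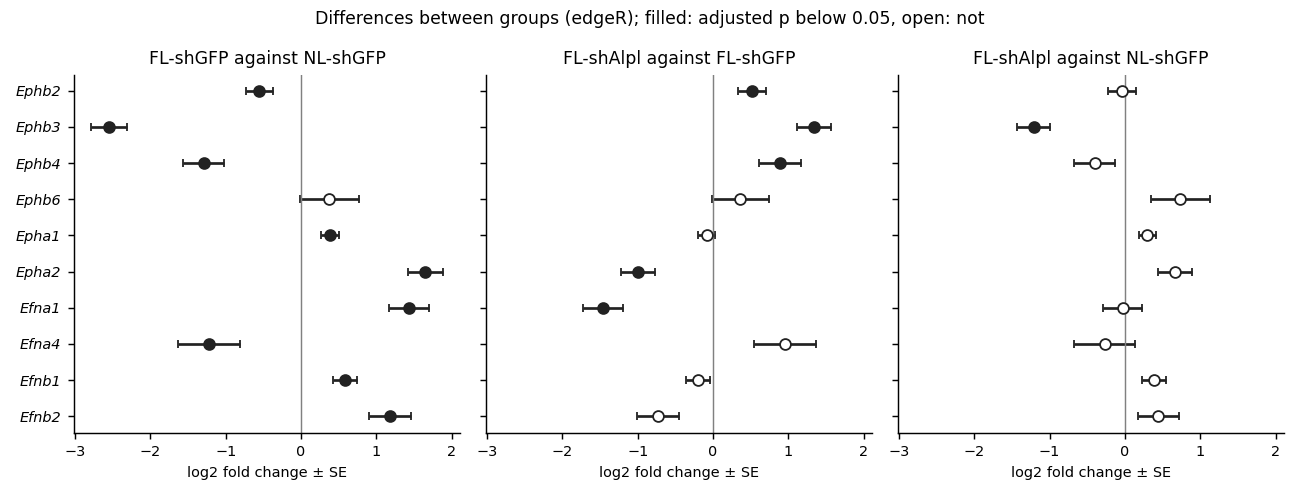
Log2 fold change (horizontal axis, whiskers 1 standard error) of each gene in the 3 comparisons, positive where the first-named group is higher. Filled points have an edgeR adjusted p below 0.05: 9 of 10 in FL-shGFP against NL-shGFP, 5 of 10 in FL-shAlpl against FL-shGFP and 1 of 10 in FL-shAlpl against NL-shGFP.

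The second comparison asks what the hairpin against Alpl changed in mice that all had a fatty liver. The receptors Ephb2, Ephb3 and Ephb4 were higher in FL-shAlpl than in FL-shGFP, and Epha2 and its ligand Efna1 were lower. Of the 10 members 3 rose, 2 fell and 5 did not pass, beside 36.0% of all genes that passed in either direction (18.0% higher, 17.9% lower). The median of the 10 was 0.14, against -0.0037 for all genes, and 2 of 10 did not overlap, beside 16.9% of all genes (7.63% higher, 9.29% lower). This comparison and the first share the 5 FL-shGFP samples, so an opposite sign in both is in part built in, and the values stand side by side only.

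Ephb3 rose 2.52-fold in FL-shAlpl (1.33 ± 0.23, edgeR adjusted p = 0.000722), with the groups apart as given above. Ephb2 was 98.3, 90.2, 84.2, 125 and 90.4 CPM in FL-shAlpl, and rose by 0.51 ± 0.18 (edgeR adjusted p = 0.0368). Its groups overlapped, and leaving out FL-shGFP replicate 1, 2 or 4 or FL-shAlpl replicate 1, 2 or 4 ended the Ephb2 call (highest edgeR adjusted p 0.101), as did library totals, a fit of only these 2 groups and summing the close NL-shGFP libraries. Ephb4 was 87.0, 61.4, 79.5, 108 and 64.9 CPM in FL-shAlpl and rose by 0.89 ± 0.27 (edgeR adjusted p = 0.0214). FL-shGFP replicate 5 of Ephb4 lay within the FL-shAlpl range, and the call was lost without FL-shGFP replicate 1 or FL-shAlpl replicate 4 (highest edgeR adjusted p 0.0579), without a filter on low counts (0.0502) and in a fit of only these 2 groups (0.0548).

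Efna1 was 26.1, 57.0, 43.5, 38.3 and 47.0 CPM in FL-shAlpl, all 5 samples below every FL-shGFP sample. It fell by 1.46 ± 0.26 on the log2 scale (edgeR adjusted p = 0.00115). Epha2 was 21.9, 26.5, 26.1, 28.4 and 17.9 CPM in FL-shAlpl and fell by 0.99 ± 0.23 (edgeR adjusted p = 0.00438), with overlap only through FL-shGFP replicate 5. The calls for Ephb3, Efna1 and Epha2 passed without any 1 of the 10 samples.

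Neither Efnb1 nor Efnb2 passed in this comparison. Efnb1 was 48.8, 76.9, 84.4, 59.1 and 86.4 CPM in FL-shAlpl (-0.20 ± 0.16, 95% interval -0.55 to 0.14, edgeR adjusted p = 0.329). Efnb2 was 40.6, 77.0, 83.2, 44.0 and 75.6 CPM (-0.73 ± 0.28, 95% interval -1.34 to -0.13, edgeR adjusted p = 0.0502), at the edge of the threshold. FL-shAlpl replicates 1 and 4 had the 2 lowest values of both ephrins, and the Efnb2 call depended on the samples and settings. It passed in 4 of 10 fits with a sample left out (FL-shGFP replicate 3 or 5, FL-shAlpl replicate 2 or 3; -0.91, edgeR adjusted p = 0.00925, without FL-shGFP replicate 5) and in 3 of 11 other alternatives (RLE factors, a filter of 1 CPM in 5 samples, and DESeq2), which makes 3 lower members in place of 2. Efna4 (2.67 to 6.45 CPM in FL-shAlpl) did not pass (0.95 ± 0.41, edgeR adjusted p = 0.0781), but passed without FL-shGFP replicate 5, where it was 1.56 (edgeR adjusted p = 0.00186). Epha1 (18.5 to 26.9 CPM, -0.09 ± 0.12, edgeR adjusted p = 0.579) and Ephb6 (0.629 to 0.989 CPM, 0.36 ± 0.38, edgeR adjusted p = 0.479) did not pass either.

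Compared directly with normal liver, FL-shAlpl differed in 1 member. Ephb3 was 2.32-fold lower (-1.21 ± 0.22, edgeR adjusted p = 0.00212), with all 5 samples below NL-shGFP. This is 1 of 10 members, beside 17.4% of all genes that passed (9.31% higher, 8.12% lower), and 1 of 10 without overlap, beside 14.6% of all genes (7.54% higher, 7.01% lower). The other 9 did not pass, which does not show that they were alike. The 95% interval of the difference ran from -0.43 to 0.35 for Ephb2, from -0.998 to 0.19 for Ephb4 and from -0.60 to 0.53 for Efna1. For Epha2 the difference was 0.66 ± 0.23 (0.16 to 1.15, edgeR adjusted p = 0.0574), for Efnb1 0.38 ± 0.16 (0.03 to 0.72, edgeR adjusted p = 0.110) and for Efnb2 0.44 ± 0.28 (-0.16 to 1.05, edgeR adjusted p = 0.299). For Epha1 it was 0.30 ± 0.12 (0.04 to 0.55, edgeR adjusted p = 0.0897), with 4 of 5 samples above every NL-shGFP sample, for Ephb6 0.73 ± 0.39 (-0.11 to 1.58, edgeR adjusted p = 0.209) and for Efna4 -0.27 ± 0.40 (-1.14 to 0.60, edgeR adjusted p = 0.699). Epha1 and Efnb1 passed without FL-shAlpl replicate 1 (edgeR adjusted p = 0.0317 and 0.0246). Epha2 passed once NL-shGFP replicate 1 or FL-shAlpl replicate 5 was left out (edgeR adjusted p = 0.0445 and 0.0471). Of the 11 other alternatives, Epha2 passed in 6, Epha1 in 3 and Efnb1 in 3, each as higher.

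The receptors Ephb2 and Ephb3 were next set against the ligands Efnb1 and Efnb2 per length. Summed FPKM of Ephb2 and Ephb3 divided by that of Efnb1 and Efnb2 was 0.526, 0.506, 0.713, 0.705 and 0.833 in NL-shGFP samples. It was 0.126, 0.120, 0.273, 0.0915 and 0.351 with FL-shGFP, and with FL-shAlpl 0.568, 0.277, 0.267, 0.584 and 0.253. The medians were 0.705, 0.126 and 0.277. No FL-shGFP sample reached the NL-shGFP range, and FL-shAlpl fell into samples inside it (replicates 1 and 4) and samples below it that lay within the FL-shGFP range (replicates 2, 3 and 5). The ratio is a score over the members and was not tested. It leaves out Ephb4, at 21.96 FPKM the most abundant EphB member in NL-shGFP, against 7.68 FPKM for Ephb2 and 6.53 FPKM for Ephb3. The ratio therefore does not show whether B-type receptor or ligand RNA as a whole was the greater.

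**Figure D3:**
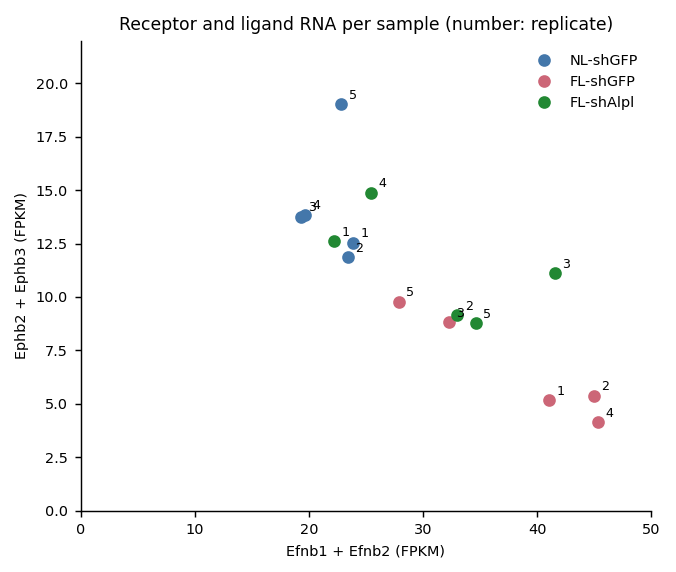
Summed FPKM of Ephb2 and Ephb3 (vertical) against that of Efnb1 and Efnb2 (horizontal) in each of the 15 samples, labelled by replicate number and coloured by group. NL-shGFP samples lie at the upper left, FL-shGFP replicates 1, 2 and 4 at the lower right, and FL-shAlpl samples between 8.78 and 14.9 FPKM of receptor.

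Within each group the members also sorted the samples. In FL-shGFP, replicate 5 had the highest Ephb3, Ephb4 and Efna4 and the lowest Epha1, Epha2, Efna1, Efnb1 and Efnb2, whereas replicate 4 had the lowest Ephb2 and Ephb4 and the highest Efna1, Efnb1 and Efnb2. In FL-shAlpl, replicates 1 and 4 had the 2 highest values of Ephb2, Ephb3 and Ephb4 and the 2 lowest of Efnb1 and Efnb2. Epha2 did not go with these ephrins there, being highest in replicate 4 (28.4 CPM) and lowest in replicate 5 (17.9 CPM). In NL-shGFP, replicate 5 had the highest Ephb2, Ephb3, Ephb4 and Efna4 and the lowest Epha2, Efna1 and Efnb2.

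Markers of the surface colonocyte, the mature absorptive cell of the crypt mouth, varied along the same lines. Of these 18 markers 16 rose and 0 fell in FL-shGFP against NL-shGFP, and 0 rose and 13 fell in FL-shAlpl against FL-shGFP. Their summed level was 4159 to 6781 CPM in NL-shGFP, 9536 to 24312 CPM in FL-shGFP and 5152 to 10542 CPM in FL-shAlpl, and none of the 18 was at 0 throughout a group. The lowest sum of each group was 4159 CPM in NL-shGFP replicate 5, 9536 CPM in FL-shGFP replicate 5 and 5152 CPM in FL-shAlpl replicate 1. The highest sum was 24312 CPM in FL-shGFP replicate 4. Immune markers moved too (9 of 12 rose in FL-shGFP against NL-shGFP, 8 of 12 fell in FL-shAlpl against FL-shGFP), with sums of 124 to 367 CPM in NL-shGFP, 427 to 1100 CPM in FL-shGFP and 98.0 to 317 CPM in FL-shAlpl. Of 11 fibroblast and muscle markers 5 rose and 0 fell in FL-shGFP against NL-shGFP, and 0 rose and 3 fell in FL-shAlpl against FL-shGFP. Their sums were 14.6 to 64.4 CPM in NL-shGFP, 62.0 to 362 CPM in FL-shGFP and 24.6 to 311 CPM in FL-shAlpl. The 311 CPM was replicate 5 alone, and the other FL-shAlpl samples were at 24.6 to 61.1 CPM. Beside all these counts of markers, 25.1% of all genes rose and 21.6% fell in FL-shGFP against NL-shGFP. In FL-shAlpl against FL-shGFP the shares were 18.0% and 17.9%. The part of any of these cell types in the differences of the members was not tested.

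**Figure D4:**
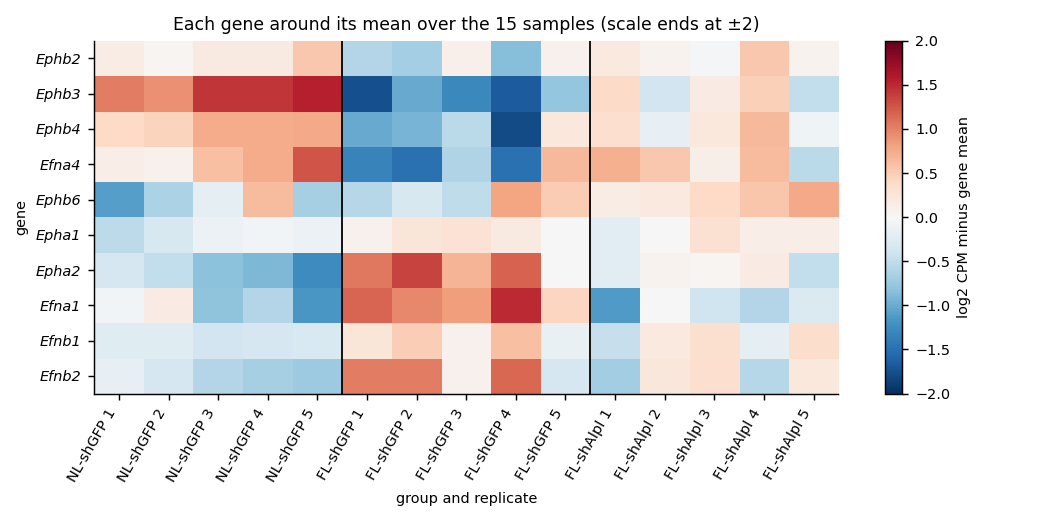
Log2 CPM of each gene (rows) in each sample (columns) minus the gene's mean over the 15 samples; red is above and blue below that mean, and black lines part the groups. FL-shGFP replicate 5 is paler than the other FL-shGFP samples in most rows, and FL-shAlpl replicates 1 and 4 differ from replicates 2, 3 and 5 in Efnb1 and Efnb2.

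Genes of the Wnt and stem cell list, known neighbours of Ephb2 and Ephb3 in the crypt base, gave 1 rise and 13 falls among 18 tested in FL-shGFP against NL-shGFP (median -1.22) and 11 rises and 2 falls in FL-shAlpl against FL-shGFP (median 0.68). In FL-shAlpl against NL-shGFP, 0 rose and 3 fell (median -0.26). Axin2, the Wnt feedback gene, was 22.5 to 28.2 CPM in NL-shGFP, 0.608 to 3.22 CPM in FL-shGFP and 10.3 to 27.8 CPM in FL-shAlpl. Ascl2 was 2.79 to 6.43 CPM in FL-shAlpl and 3.24 to 6.09 CPM in NL-shGFP and did not pass between these groups (-0.08 ± 0.47, edgeR adjusted p = 0.935), whereas Ephb3 did.

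Of the other 12 Eph receptors and ephrins of the mouse, 7 passed the filter, and Epha3, Epha6, Epha8, Epha10 and Ephb1 did not, with group means of at most 0.125 CPM. Epha4, a receptor that binds both ephrin types, was at 10.1 ± 1.37 CPM in NL-shGFP, 9.02 ± 2.67 CPM in FL-shGFP and 15.05 ± 1.29 CPM in FL-shAlpl. It was higher in FL-shAlpl than in FL-shGFP (0.74 ± 0.19, edgeR adjusted p = 0.00767) and than in NL-shGFP (0.57 ± 0.19, edgeR adjusted p = 0.0445), and did not pass between the last 2 (-0.16 ± 0.19, edgeR adjusted p = 0.495). Efna3, an A-type ephrin, rose from 1.17 ± 0.609 to 3.73 ± 2.06 CPM in FL-shGFP (1.67 ± 0.45, edgeR adjusted p = 0.00687) and was at 1.22 ± 0.604 CPM in FL-shAlpl, lower than in FL-shGFP (-1.60 ± 0.44, edgeR adjusted p = 0.0121). Efna5 did likewise at under 1 CPM (3.14 ± 0.98 and -2.87 ± 0.93). Epha7 (-1.71 ± 0.44), Efna2 (-1.86 ± 0.56) and Efnb3 (-1.94 ± 0.51) fell in FL-shGFP against NL-shGFP, from group means of at most 1.12 CPM. They did not pass in FL-shAlpl against FL-shGFP. Efnb3 is a B-type ephrin, so its fall went against the rise of Efnb1 and Efnb2.

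Inside the cell, Eph receptors and ephrins act through adaptors, Src-family kinases, exchange factors of small GTPases and phosphatases. Of 49 such genes 21 rose and 8 fell in FL-shGFP against NL-shGFP (median 0.21), 6 rose and 9 fell in FL-shAlpl against FL-shGFP (median -0.06), and 8 rose and 4 fell in FL-shAlpl against NL-shGFP (median 0.13). Over all genes 25.1% rose and 21.6% fell in the first of these comparisons, 18.0% and 17.9% in the second, and 9.31% and 8.12% in the third. Ptpro, a receptor phosphatase known to act on Eph receptors, fell the most in the first comparison, from 23.2 ± 7.81 to 2.38 ± 1.33 CPM (-3.28 ± 0.46, edgeR adjusted p = 9.31e-05). It was 6.23 ± 4.07 CPM in FL-shAlpl, higher than in FL-shGFP (1.38 ± 0.43) and lower than in NL-shGFP (-1.89 ± 0.43), the same order of groups as Ephb3. The exchange factor Kalrn (1.70 ± 0.28), the phosphatase Ptprj (1.33 ± 0.24) and the kinase Fyn (1.69 ± 0.32) rose in FL-shGFP.

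Fyn is also a kinase of T cells, and it fell in FL-shAlpl against FL-shGFP (-2.28 ± 0.33, edgeR adjusted p = 0.000245) beside the immune markers given above. The adaptor Shb fell there too (-0.65 ± 0.12), and the scaffold Itsn1 (0.53 ± 0.10) and the phosphatase Ptpn13, which acts on B-type ephrins (0.64 ± 0.14), rose. In FL-shAlpl against NL-shGFP, Ptpn13 had the lowest p of the list (0.95 ± 0.14, edgeR adjusted p = 0.000479), Rin1 rose (1.02 ± 0.23) and Pick1 fell (-0.69 ± 0.14). Of the abundant GTPases, Cdc42 did not pass in any of the 3 comparisons (0.30 ± 0.13, edgeR adjusted p = 0.0760, in FL-shGFP against NL-shGFP). Rac1 rose in FL-shGFP against NL-shGFP (0.51 ± 0.11, edgeR adjusted p = 0.00145) and did not pass in FL-shAlpl against FL-shGFP (-0.26 ± 0.11, edgeR adjusted p = 0.0672). Rhoa rose in FL-shAlpl against NL-shGFP (0.29 ± 0.09, edgeR adjusted p = 0.0343) and did not pass in the first comparison (0.21 ± 0.09, edgeR adjusted p = 0.0640).

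Genes whose pattern over the 15 samples was most like that of a member were found by the root mean square difference of log2 CPM, each gene centred on its mean, among 12332 other genes with at least 1 CPM on average. Nearest to Ephb3 were Cldn15 (0.312), a tight junction claudin, Proser3 (0.346), Ppp1r26 (0.348), Tenm4 (0.362) and Thap2 (0.364), against 1.13 for the median gene. Nearest to Ephb2 were the translation factor genes Eef1a1 (0.108) and Eif4b (0.125), the ubiquitin ligase Nedd4 (0.124), Lzts2 (0.132) and Rhobtb2 (0.134), against 0.482. The 5 genes nearest to Ephb2 and the 5 nearest to Ephb3 shared no gene, which the measure fixed in advance. It is not scaled to the size of a gene's changes, and the root mean square spread was 0.388 for Ephb2 and 1.11 for Ephb3. These spreads lie too far apart for 1 gene to be so near to both, so the lists do not show whether the 2 patterns differ in shape.

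Among the nearest to Efnb1 were Hcfc1r1 (0.0926), Dgka (0.0986), Abhd11os (0.0996) and Pttg1ip (0.0997), against 0.497 for the median gene. Nearest to Efnb2 were the ferroxidase Heph (0.156), the pseudogene Btnl5-ps (0.158), Mall (0.165), Ipmk (0.171) and Etv3 (0.171), against 0.738. These distances are descriptions: the 15 samples fall into 3 groups, and genes that share a group difference come out close.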

How the data were processed

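RNA of colonic crypts was sequenced in 15 samples, 5 per group, after column purification and mRNA enrichment, per the labels' protocols. HISAT2 is named in the submitters' processing notes. No source used here gives its version, the counter, the build or the strand setting. The authors deposited tables that hold whole-number counts per Ensembl gene and FPKM values. The deposited FPKM equalled the counts over gene length and library total, to within 1.40e-06 of the value. Of the counts between 1 and 12, 72.4% to 77.2% were even in each library, and why was not tested. Symbols came from a table of gene names (32241 of 32939 IDs matched). No value column lacked a sample.

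One edgeR 4.0.16 quasi-likelihood model (R 4.3.3, robust, TMM, 1 mean per group, 12 residual degrees of freedom) was fitted to the 17404 genes that passed filterByExpr, with two-sided tests and a threshold of 0.05 on adjusted p. The common coefficient of biological variation estimated by edgeR was 30.2%. Counting noise comes on top of it and weighs most at low counts, as for Ephb6 (8 to 44 counts). A 95% interval is the log2 fold change plus or minus its standard error times the t quantile for 12 degrees of freedom. The members, lists and rules were chosen with earlier results of these data known. Named genes are the 10 members, family genes that were called, up to 4 called and 2 abundant uncalled genes of the signalling list per comparison, position markers, and the 5 genes nearest to each of Ephb2, Ephb3, Efnb1 and Efnb2 (log2 CPM with a prior count of 2, predicted genes left out); 1 of these is not reported here. Alternatives were RLE factors, library totals, no filter, 1 CPM in 5 samples, DESeq2 1.42.0, limma 3.58.1 trend on log2(FPKM + 1) and log2(FPKM + 0.1), 2 groups only, a replicate block, leaving out samples singly, summing the close libraries of NL-shGFP, and dropping mitochondrially encoded genes. Scripts were first tested on simulated data. Figures used matplotlib 3.10.9.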

Additional observations from a re-analysis of the deposited data

Results flagged for a closer look

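In 2 of 33 checks of 5 samples each, 1 sample stood far from the other 4 (a gap of more than 0.71 of the whole range), a number close to what chance gives, since about 1 in 20 such groups is picked out without any cause. Ephb2 in NL-shGFP was 125 CPM in replicate 5, against 88.0 to 97.7 CPM in the others. Efna4 in FL-shGFP was 6.14 CPM in replicate 5, against 1.36 to 2.58 CPM in the others. Without these samples Ephb2 did not pass in FL-shGFP against NL-shGFP (-0.47), and Efna4 differed by -1.83 there and by 1.56 in FL-shAlpl against FL-shGFP.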

How the results depend on the processing

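Of 15 called differences of members, 10 passed in each of the 10 fits that left out a sample and the 11 other alternatives, and 0 changed sign in any; the 5 exceptions were Ephb2 in the first 2 comparisons, Ephb4 in FL-shAlpl against FL-shGFP, and Epha1 and Efna4 in FL-shGFP against NL-shGFP. In FL-shGFP against NL-shGFP the number of lower members was 2 with library totals and 2 to 4 with a sample left out. In FL-shAlpl against FL-shGFP the number of higher members was 1 with only the 2 groups compared and 1 to 4 with a sample left out. In FL-shAlpl against NL-shGFP the number of higher members was 3 with library totals and with both FPKM pseudocounts, 1 with DESeq2 and with only the 2 groups, and 0 to 2 with a sample left out. The differences of Ephb2 and Efna1 in FL-shAlpl against NL-shGFP lay near 0 and changed sign: 0.091 and 0.093 with library totals, 0.080 and 0.13 on log2(FPKM + 1), 0.090 and 0.14 on log2(FPKM + 0.1), from -0.14 to 0.049 and from -0.20 to 0.15 with a sample left out, and for Efna1 0.058 with the close libraries summed. That of Epha1 in FL-shAlpl against FL-shGFP was 0.0023 with library totals. The cause of these changes was not tested. The median ratio of receptors to ligands was 0.358 with Ephb2 alone and 0.347 with Ephb3 alone in NL-shGFP, and 0.0847 with Ephb3 alone in FL-shAlpl, as fewer receptors were summed.

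Samples share a replicate number across groups, but same-numbered samples did not deviate together throughout (correlations from -0.35 to 0.33), so the numbers were not used as pairs. With a replicate block 1 member was higher in FL-shAlpl against NL-shGFP, Epha2 (0.67), Efna4 passed in FL-shAlpl against FL-shGFP (1.23), and Efna1 was 0.025 in FL-shAlpl against NL-shGFP.

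Over all genes, the calls lower in FL-shGFP than in NL-shGFP were 2347 to 4281 over the alternatives against 3752, and those higher 3458 to 5082 against 4376. Between FL-shAlpl and NL-shGFP they were 637 to 2783 higher against 1621, and 703 to 1839 lower against 1414. Between FL-shAlpl and FL-shGFP they were 2001 to 3681 higher against 3141, and 2373 to 3816 lower against 3120. With library totals, higher genes were 65.8% of the calls in FL-shGFP against NL-shGFP and 75.0% in FL-shAlpl against NL-shGFP, against 53.8% and 53.4%.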
